A study of Drosophila melanogaster with 6 samples.

Results

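The Kekkon genes, kek1 to kek6, encode a Drosophila family of cell surface proteins, and all 6 were among the 17806 named genes counted in rRNA-depleted total RNA from sorted intestinal progenitor cells. The 6 were chosen by their shared symbol, after earlier results of the same comparison had shown some of them to differ between the genotypes. Their differences are therefore given as a description, with no test. Every Kekkon gene had at least 1 read, and 5 of the 6 passed the expression filter that left 7927 genes for testing. kek3 did not pass it.

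The cells came from adult female flies and were sorted as GFP-positive progenitors from dissected gastrointestinal tracts, 100 flies per replicate, held at 29 °C for 6 days. One genotype is labelled esgTS, a name commonly given to the temperature-inducible driver of the escargot gene, which is active in gut progenitors. The other is labelled Patr1, and the labels spell out neither its allele or construct nor whether it also carries the driver. There were 3 libraries of each, with 2035676 to 2958607 reads per library. The question behind the series was which RNAs are regulated through P-bodies, which are cytoplasmic granules of repressed mRNA and decay factors. Transcripts of Patr-1, which encodes a decapping activator of these granules, stood at 35.8, 32.5 and 39.3 CPM (read counts scaled for the depth and composition of each library) in Patr1 replicates 1, 2 and 3 against 206.7, 222.9 and 230.6 in esgTS. That was 6.16-fold lower in Patr1, by the quasi-likelihood test of edgeR with Benjamini-Hochberg adjustment (adjusted p = 1.56e-09). The 10 progenitor markers listed, among them esg and Dl, all had at least 3 reads in every library, and their summed level was 5282 to 6108 CPM in Patr1 and 5652 to 6142 in esgTS. Of these markers 6 rose, 3 fell and 1 did not pass, with sna 2.74-fold higher and zfh2 1.90-fold lower (edgeR adjusted p = 1.54e-06 and 3.87e-05). That is 90% past an adjusted p of 0.05, beside 49.4% of all genes tested.

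Kekkon proteins are single-pass transmembrane proteins that carry leucine-rich repeats and an immunoglobulin domain outside the cell. Kek1 binds the EGF receptor and dampens its signalling, and in the fly ovary its gene is itself switched on by that receptor, which makes it a feedback inhibitor. Kek5 has been linked to BMP signalling in fly epithelia, and Kek6 acts at the fly neuromuscular synapse as a receptor for a neurotrophin-like ligand, together with the Toll-family receptor Toll-6. In the midgut, EGF receptor signalling drives the division of intestinal stem cells.

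The family divided into 3 patterns. Transcripts of kek1, kek2 and kek4 were scarce or almost absent in esgTS and were many times more abundant in Patr1, kek5 was abundant in both genotypes and slightly higher in Patr1, and kek6 overlapped between them. In 4 of the 5 Kekkon genes that passed the filter, all 3 Patr1 libraries lay above all 3 esgTS libraries. The same held for 29.6% of all genes tested. Since these differences led to the choice of the family, nothing is read from that count.

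kek1 was at 5.18, 4.98 and 7.28 CPM in esgTS replicates 1, 2 and 3, from 15, 15 and 19 reads. In Patr1 it was at 73.2, 103.4 and 85.6 CPM, from 145, 302 and 194 reads. The lowest Patr1 library was thus far above the highest esgTS library. The means were 87.4 ± 15.2 CPM in Patr1 and 5.81 ± 1.27 in esgTS (SD, n = 3 each). Patr1 over esgTS came to 3.93 ± 0.19 (SE) on the log2 scale, which ran from 3.78 to 4.11 when single libraries were left out. It was the 124th highest fold change among the 7927 genes.

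kek2 and kek4 went from almost no reads to low but steady levels. kek2 had 1, 0 and 1 reads in the esgTS replicates and 30, 54 and 34 in the Patr1 replicates, which made 15.1, 18.5 and 15.0 CPM in Patr1. Scaled for library size, the summed reads of 118 against 2 gave a ratio of 70.1 (exact 95% counting interval 19.0 to 585.7). kek4 had 2, 0 and 0 reads in esgTS and 28, 31 and 23 in Patr1, or 14.1, 10.6 and 10.2 CPM. Its ratio of 82 to 2 reads was 48.7 (13.1 to 409.1). Within Patr1 the 3 libraries of kek2 and kek4 differed by no more than read counting would give: the coefficient of variation was 12.2% for kek2 and 18.7% for kek4, where counting alone gives 15.9% and 19.1%. These intervals cover counting error only. Both genes passed the filter only through their Patr1 libraries. Fitted fold changes of such genes depend on a small constant added to the counts, so only the ratios are given here.

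kek3 was not detectable in either genotype at this depth. It had 0, 1 and 1 reads in the Patr1 replicates and 0, 0 and 1 in the esgTS replicates, below the 3-read floor of 0.997 to 1.51 CPM, so no fold change is given.

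kek5 was the predominant transcript of the family. It was at 816.9, 848.7 and 871.7 CPM in the esgTS replicates and at 977.0, 943.0 and 1156 CPM in the Patr1 replicates. The groups did not overlap, although the gap between them was narrow, from 871.7 to 943.0 CPM, and replicate 3 stood above the other Patr1 libraries. The difference came to 0.28 ± 0.10 (SE) on the log2 scale, and to 0.18 without Patr1 replicate 3. The 3 Patr1 libraries had a coefficient of variation of 11.1%, against 3.25% in esgTS, and counting alone gives 2.03% and 2.04%.

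kek6 differed by less than the spread between replicates. It was at 32.8, 21.9 and 24.5 CPM in esgTS and 30.8, 30.1 and 24.3 CPM in Patr1, and the groups overlapped. The difference came to 0.11 ± 0.18 (SE) on the log2 scale and ran from -0.02 to 0.29 when single libraries were left out. The pooled ratio of 1.08 had a counting interval of 0.887 to 1.31.

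**Figure D1:**
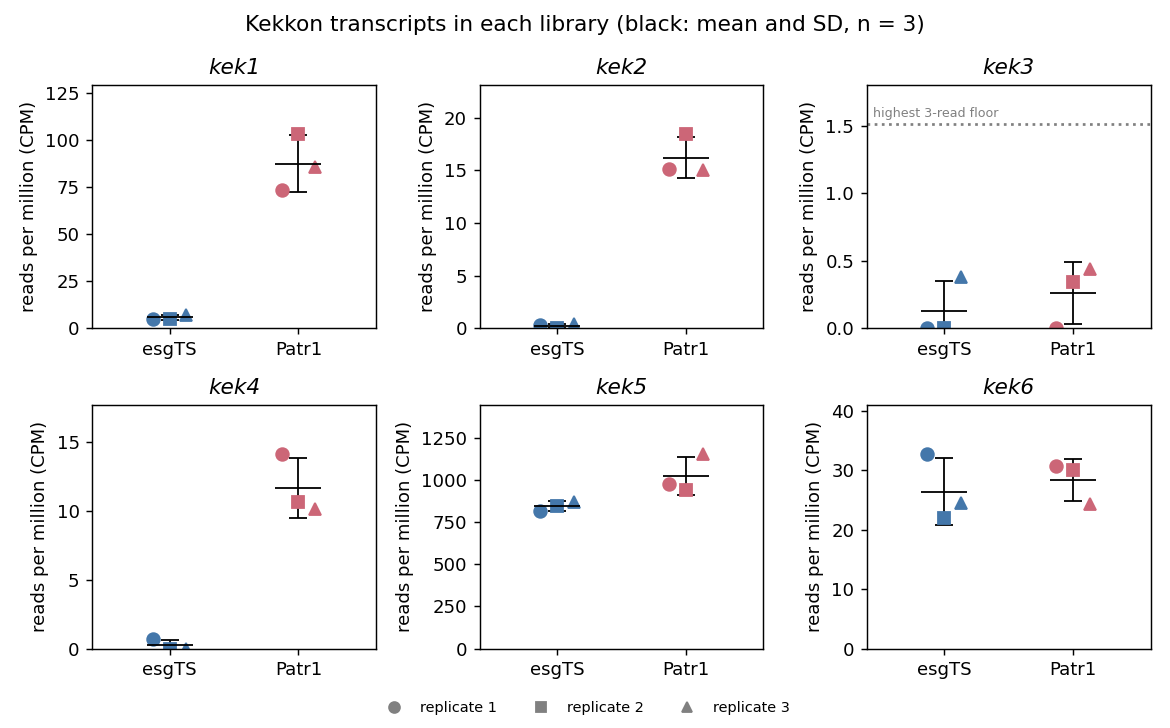
Level of each Kekkon transcript, in CPM scaled for library size, in the 3 esgTS and 3 Patr1 libraries, with the mean and SD in black and a separate axis from 0 for each gene. kek1, kek2 and kek4 sit near the bottom in esgTS and at 73.2 to 103.4, 15.0 to 18.5 and 10.2 to 14.1 CPM in Patr1, while the esgTS and Patr1 points of kek6 overlap.

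In CPM rather than folds, the mean of kek5 was 179.4 CPM higher in Patr1, while kek1, kek2 and kek4 together were 108.9 CPM higher. Without Patr1 replicate 3 these gains were 114.3 and 111.2 CPM, so that the larger gain of kek5 rested mostly on that library. The summed level of the 6 genes was 878.6 ± 24.3 CPM in esgTS and 1169 ± 105.7 in Patr1 (SD, n = 3 each). kek5 made up 95.4%, 96.9% and 96.4% of the family's reads in the esgTS replicates and 88%, 85.3% and 89.5% in the Patr1 replicates. The share of kek1 was 0.605%, 0.569% and 0.805% in esgTS and 6.59%, 9.35% and 6.63% in Patr1. Neither share overlapped between the genotypes.

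Levels of different genes were compared per kilobase of the deposited gene length. In esgTS the order was kek5, kek6, kek1, kek4, kek2, kek3, with means of 131.8, 3.99, 1.00, 0.0851, 0.0350 and 0.0268 CPM per kilobase. The last 3 rested on 0 to 2 reads per library and could not be told apart. In Patr1 kek1 moved to the second place, and the order was kek5, kek1, kek4, kek6, kek2, kek3, at 159.8, 15.1, 4.30, 4.29, 2.34 and 0.0549 CPM per kilobase. The neighbours kek4 and kek6 overlapped in Patr1, while each of the other neighbours in that order was separated in all 3 libraries. By this measure kek5 was above 93.7% to 94.5% of all tested genes in esgTS and 94.5% to 96.6% in Patr1. kek1 was above 3.38% to 4.73% of them in esgTS and 26.1% to 32.7% in Patr1.

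**Figure D2:**
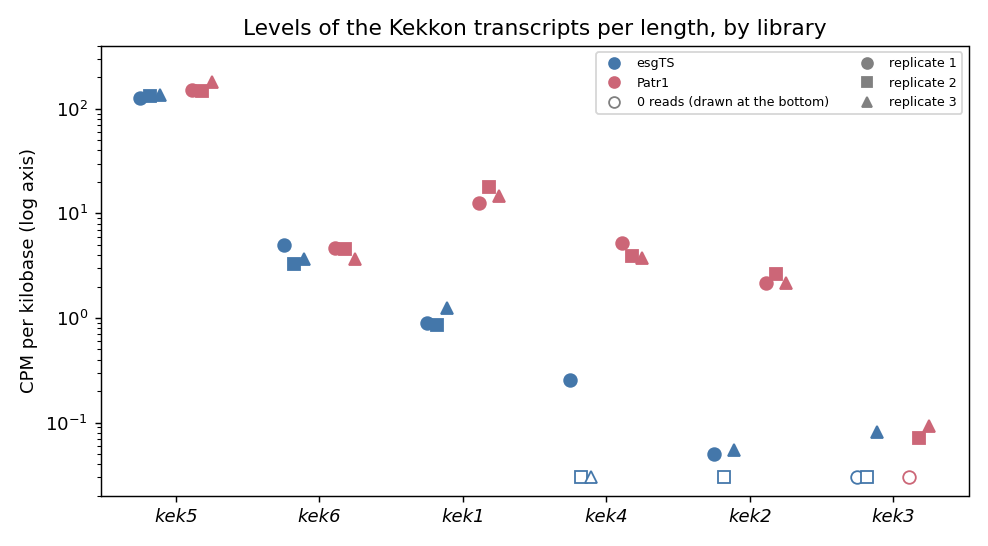
CPM per kilobase of gene length on a log axis for each Kekkon gene and library, ordered by the esgTS mean, with libraries of 0 reads as open symbols at the bottom. kek5 lies above 127 CPM per kilobase in every library, and kek1 lies below kek6 in esgTS and above it in Patr1.

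Because Kek1 binds the EGF receptor, its transcript was set beside that of Egfr, which encodes the receptor. Egfr was at 1200, 1124 and 1214 CPM in the esgTS replicates and 630.3, 603.1 and 719.9 in the Patr1 replicates, and it fell 1.81-fold (edgeR adjusted p = 1.38e-05). Per kilobase, kek1 amounted to 0.518%, 0.532% and 0.720% of Egfr in esgTS and to 13.9%, 20.6% and 14.3% in Patr1. The genotypes were far apart in this ratio, and both genes contributed to it. These are ratios of transcripts, and the amounts of the proteins were not measured. In bulk RNA a change in the number of cells that express a gene and a change in RNA per cell cannot be told apart.

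The other genes of the EGF receptor pathway moved both ways. Of 31 listed, 28 were tested, and 13 rose, 6 fell and 9 did not pass the edgeR threshold of an adjusted p of 0.05. That is 67.9% past the threshold, beside 49.4% of all genes tested (25.5% higher and 23.9% lower in Patr1). The median log2 fold change of the list was 0.25, and that of all tested genes was 0.01.

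Of the genes for releasing the ligands, S, rho and rho-4 rose, and ru and stet had too few reads to be tested. Of the ligand genes, spi, Krn and vn did not pass, and grk was not tested. S, which encodes the chaperone Star that escorts the ligand Spitz, stood at 384.8 ± 5.27 CPM in esgTS and rose 2.50-fold to 963.4 ± 47.6 in Patr1, with an edgeR adjusted p of 1.13e-07. The rhomboid gene rho-4 was at 208.1, 191.0 and 204.9 CPM in esgTS and 496.1, 416.9 and 462.6 in Patr1, a 2.27-fold rise (edgeR adjusted p = 5.21e-07). rho, which encodes the protease that cleaves Spitz, stood at 6.01 ± 3.12 CPM in esgTS and rose to 22.2 ± 4.75 in Patr1, with an edgeR adjusted p of 3.96e-04. The ligand gene spi was at 264.6 CPM on average in esgTS and 238.6 in Patr1 (edgeR adjusted p = 0.146), and the values were 34.0 and 44.2 CPM for Krn (0.0731) and 54.6 and 70.6 CPM for vn (0.117). Each of these ligand genes passed in some alternative: spi without Patr1 replicate 3 (log2 -0.21, adjusted p = 0.0464), Krn without esgTS replicate 1 (0.53) or Patr1 replicate 3 (0.46), and vn without esgTS replicate 3 (0.62). Krn and vn also passed when no expression filter was used, and Krn with the replicate block.

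Between receptor and nucleus, small changes in both directions were found. The genes of the adaptor Drk, the exchange factor Sos, the MEK kinase Dsor1 and the Src kinase Src42A were higher, by log2 0.22 to 0.42, and those of the phosphatase csw, the adaptor dos and the scaffold ksr were lower, by log2 -0.31 to -0.51. Ras85D, Raf and rl, the core GTPase and kinases, did not pass (edgeR adjusted p = 0.751, 0.153 and 0.184). The ETS factor gene pnt, which acts at the end of the pathway, stood at 301.5 ± 14.4 CPM in esgTS and rose to 509.0 ± 68.2 in Patr1, with an edgeR adjusted p of 5.93e-05, and its antagonist aop rose by log2 0.29 ± 0.09 (SE). Their regulator edl was higher by log2 0.45, with overlapping groups.

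The other inhibitors of the pathway differed in direction. The RasGAP gene RasGAP1 rose 1.74-fold (edgeR adjusted p = 4.94e-06), the ERK phosphatase gene Mkp3 rose by log2 0.51, and lbk, a relative of the Kekkon genes that also joins leucine-rich repeats to immunoglobulin domains, increased 1.54-fold to 266.6 ± 5.57 CPM, from 172.7 ± 13.1 in esgTS, at an edgeR adjusted p of 4.69e-05. The adhesion gene ed, whose protein also antagonises the receptor, was lower, at 243.7 ± 34.0 CPM against 428.7 ± 56.1, at an edgeR adjusted p of 1.19e-04, and the phosphatase gene PTP-ER fell by 0.41 on the log2 scale. The feedback inhibitor genes aos and sty did not pass, at log2 -0.06 and 0.16, and neither did Cbl, at -0.01. Of the 19 calls in the list, 13 were kept in every alternative run and 6 were lost in at least 1 (drk, Sos, Dsor1, aop, edl and dos). Their highest adjusted p-values in any alternative were 0.126 for drk, 0.0679 for Sos, 0.148 for Dsor1, 0.0854 for aop, 0.0761 for edl and 0.0566 for dos.

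kek5 was likewise set beside the BMP pathway. Of 22 genes listed, 16 were tested, and 4 rose, 5 fell and 7 did not pass. That is 56.2% past the threshold, near the 49.4% of all genes tested, with a median log2 fold change of -0.01. The type I receptor gene tkv was at 274.7, 242.5 and 246.6 CPM in esgTS and 540.0, 552.4 and 537.6 in Patr1, a 2.13-fold rise (edgeR adjusted p = 5.35e-07). The genes of the secreted BMP-binding proteins Cv-2 and Sog rose 2.82-fold and 2.26-fold (edgeR adjusted p = 2.83e-08 and 3.88e-07). Mad, which encodes the Smad that the receptors activate, fell 1.88-fold, to 222.2 ± 3.29 CPM from 417.3 ± 24.7 in esgTS, at an edgeR adjusted p of 1.88e-06. The ligand gene gbb, the type II receptor gene wit, the Smad partner gene shn and the target gene repressor brk were also lower, by log2 -0.40, -1.37, -0.45 and -1.43. The inhibitory Smad gene Dad, a target of the pathway, was higher, at 275.7 ± 21.7 CPM against 218.0 ± 21.0; its edgeR adjusted p was 0.00943 over all libraries and 0.0530 once esgTS replicate 1 was left out. The ligand gene dpp had 12 reads in all Patr1 libraries together and 3 in esgTS and was not tested. The other 8 calls held in every alternative.

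Of the transcripts that Kek6 is known to work with at the synapse, those of the ligand and of Toll-6 were at or near 0 reads. spz5, which encodes its neurotrophin-like ligand, had 0 reads in all 6 libraries, and the ligand gene NT1 also had 0. The receptor gene Toll-6 had 0 reads in Patr1 and 2 in esgTS, and Toll-7 had 22 and 16. The intracellular partners were expressed: Vap33 was at 542.0 ± 28.0 CPM in esgTS and 648.6 ± 57.4 in Patr1, and CaMKII at 349.1 ± 10.2 and 282.9 ± 42.9. Both passed the threshold (edgeR adjusted p = 0.0335 and 0.0281), with groups that did not overlap. The call of Vap33 was lost without Patr1 replicate 1 or 3 or any single esgTS replicate (adjusted p up to 0.146). That of CaMKII was lost with upper-quartile scaling, and when Patr1 replicate 3, or esgTS replicate 2 or 3, was omitted (up to 0.0845).

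Of 20 listed genes for neurotrophin-like ligands, Toll-family receptors and their adaptors, 11 were tested, and 4 rose, 4 fell and 3 did not pass. That is 72.7% past the threshold, beside 49.4% of all genes tested, with a median log2 fold change of 0.13. Only 3 of the 8 calls held in every alternative. The Toll ligand gene spz rose 10.1-fold, from 62.1, 56.1 and 62.8 CPM in esgTS to 699.0, 558.6 and 577.8 in Patr1 (edgeR adjusted p = 9.02e-10). The receptor genes 18w and Tollo rose by log2 1.44 ± 0.11 and 1.20 ± 0.21 (SE; edgeR adjusted p = 6.64e-07 and 5.13e-04), while Tl, the receptor of Spz in the fly embryo, had 34 reads in Patr1 and 64 in esgTS and did not pass (0.0726). The adaptor genes tub, Myd88 and Ect4 and the kinase gene CaMKII were lower by log2 -0.26 to -0.33. Without esgTS replicate 2 none of these 4 falls passed the edgeR test, and the rise of Vap33 was lost too. The list then had 4 calls in place of 8, all of them higher in Patr1. They were not the same 4 rises as in the full comparison.

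**Figure D3:**
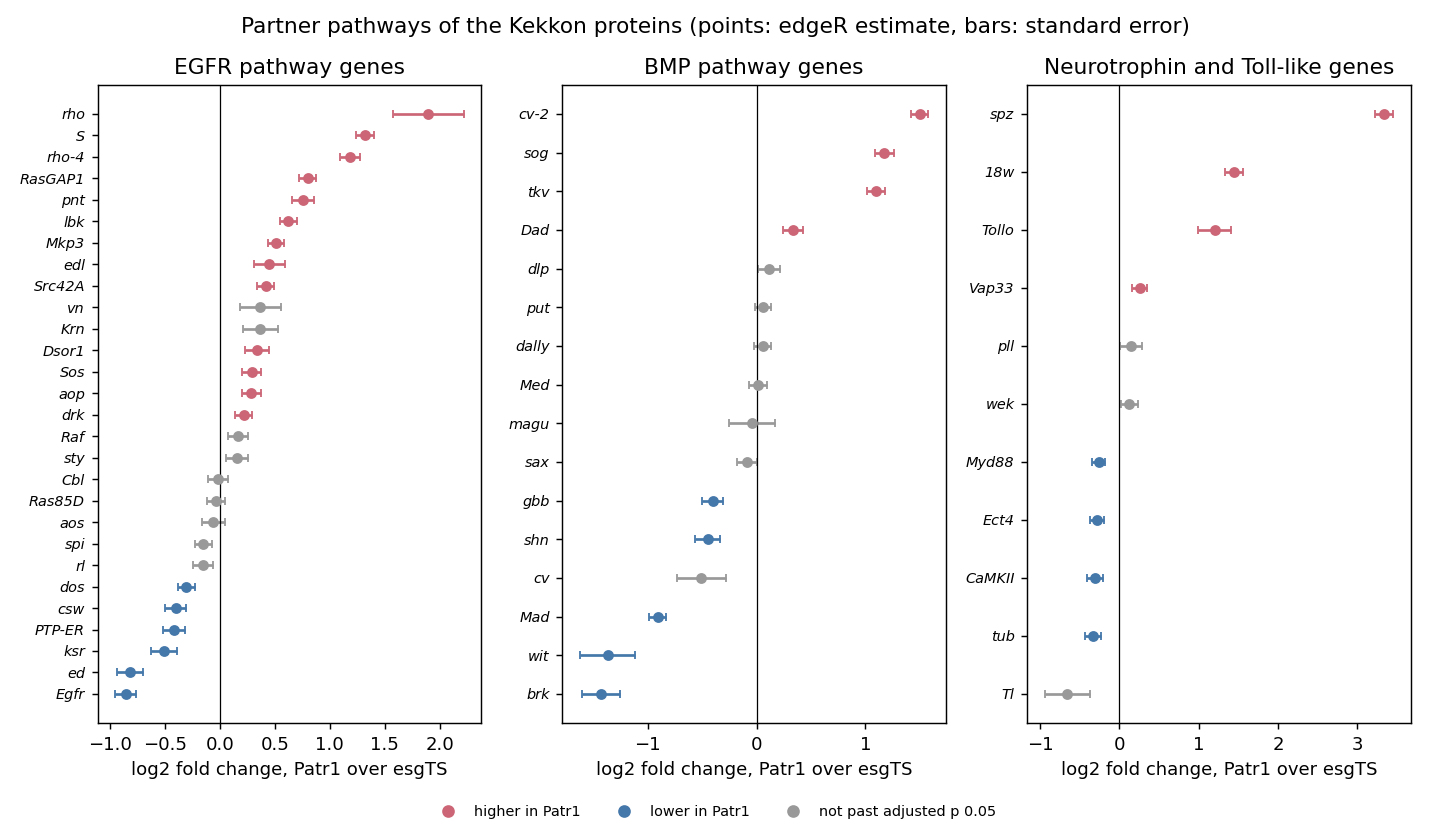
Log2 fold change of Patr1 over esgTS, with its standard error, for the tested genes of the EGF receptor, BMP and neurotrophin and Toll-like lists, coloured by whether the edgeR adjusted p was under 0.05. Genes lie on both sides of 0 in each list, from Egfr (-0.86) to rho (1.90), with brk at -1.43 and tkv at 1.09, and with spz at 3.34; some of the smaller changes were lost without a single library.

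The Kekkon genes share a compact coding structure, which the choice of members did not use. In the BDGP6 annotation the deposited lengths of all 6 equal the summed exon bases, as they do for 16883 of the 17018 counted genes found there. The exons of kek1, merged over its 2 transcripts, fill its whole span of 5788 bases. kek2, kek3 and kek6 spread over 6.42 to 6.57 times their merged exon length, and kek5 over 18.5 times, while kek4 spreads over only 1.12 times. Despite these spans the coding part lies in 1 exon in kek1 and kek2 and in 2 in the other genes. The encoded proteins have 880 (kek1), 894 (kek2), 1021 (kek3), 649 (kek4), 931 (kek5) and 836 or 843 (kek6) residues. Long introns occur both in kek2, which was nearly absent in esgTS, and in kek5, which was abundant.

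Few genes next to or inside the Kekkon genes had enough reads to be tested. Some genes lie within introns of kek2, and the annotated protein-coding ones, Mst33A, Acp33A and spag4, had 4, 2 and 1 reads in Patr1 and 0 in esgTS. The nearest counted genes on both sides of kek1, kek2 and kek3 had at most 2 reads in all libraries together. kek4 lies between the U2 snRNA genes snRNA:U2:34ABa and snRNA:U2:34ABb, which had 36 and 26 reads in Patr1 and 96 and 30 in esgTS and whose reads may be shared among near-identical copies. The first of these was lower at log2 -1.16, with an edgeR adjusted p of 0.0313, and the other did not pass (0.936). Beside kek5, CG32533 did not pass the test (log2 0.05, edgeR adjusted p = 0.67). Beside kek6, CG1792 was lower at log2 -0.78, with an edgeR adjusted p of 0.00782. pasha, a microRNA processing gene, shares 82 exon bases (1.24%) with kek6, and it was at log2 -0.27 (edgeR adjusted p = 0.0889). No source used here gives the strand setting of the counting, and both genes lie on the same strand, so reads from that overlap cannot be assigned with certainty.

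Beside other surface protein genes with similar domains, the low level in esgTS followed by a rise was not limited to Kekkon genes. Of 27 genes for leucine-rich repeat surface proteins, 14 were tested, and 6 rose, 2 fell and 6 did not pass. That is 57.1%, near the 49.4% of all genes tested, with a median log2 fold change of 0.17. Lrt had 5 reads in esgTS and 139 in Patr1, a rise to 19.1 ± 3.41 CPM, and Fili had 4 and 51, a rise to 7.33 ± 1.64 CPM (edgeR adjusted p = 1.16e-06 and 1.55e-04). Both passed the filter only through their Patr1 libraries, as kek2 and kek4 did. A gene this low in esgTS is tested only if it is high in Patr1, so nothing is read from its call. 18w, lbk, Tollo and caps also rose, the last, which encodes the cell recognition protein Capricious, to 1370 ± 211.8 CPM from 840.0 ± 46.1, at an edgeR adjusted p of 3.22e-04. hfw was lower by log2 -0.40. chp passed as lower in the full comparison (edgeR adjusted p = 0.0442), but that call held in only 1 of 11 alternatives, with no reversal of its direction. The Toll-family genes stand in the neurotrophin and Toll-like list too, and lbk, like ed among the immunoglobulin genes, in the EGF receptor list.

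Of 30 genes for immunoglobulin surface proteins, 21 were tested, and 11 rose, 7 fell and 3 did not pass. That is 85.7%, beside 49.4% of all genes tested, with a median log2 fold change of 0.36. side, which encodes a guidance protein for motor axons, had 8 reads in esgTS, none of its libraries above the floor of 3, and 334 in Patr1, at 57.5, 46.2 and 37.5 CPM. Its edgeR adjusted p was 3.59e-08, but it passed the filter only through its Patr1 libraries. As for kek2, no fitted fold change is given. The fasciclin gene Fas3 rose 8.14-fold and the netrin receptor gene fra 1.91-fold (edgeR adjusted p = 4.88e-08 and 2.01e-06). DIP-alpha, which encodes a synaptic recognition protein, fell 3.20-fold, to 253.2 ± 79.8 CPM from 807.3 ± 132.2, at an edgeR adjusted p of 1.35e-05. Other rises were those of Fas2, rst, kirre, Lac, Dscam2, Dscam3, babos and Nrg, and other falls those of ed, robo1, robo2, Dscam1, Dscam4 and otk. Lac and Dscam3 likewise passed the filter only through their Patr1 libraries. The calls of Nrg, robo1, Dscam2 and babos were lost in at least 1 alternative, with adjusted p-values up to 0.168, 0.138, 0.116 and 0.104. For Dscam2, at 28.2 ± 25.3 CPM in esgTS and 90.4 ± 53.5 in Patr1, that was DESeq2 alone. The groups of Dscam2 and of babos overlapped.

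**Figure D4:**
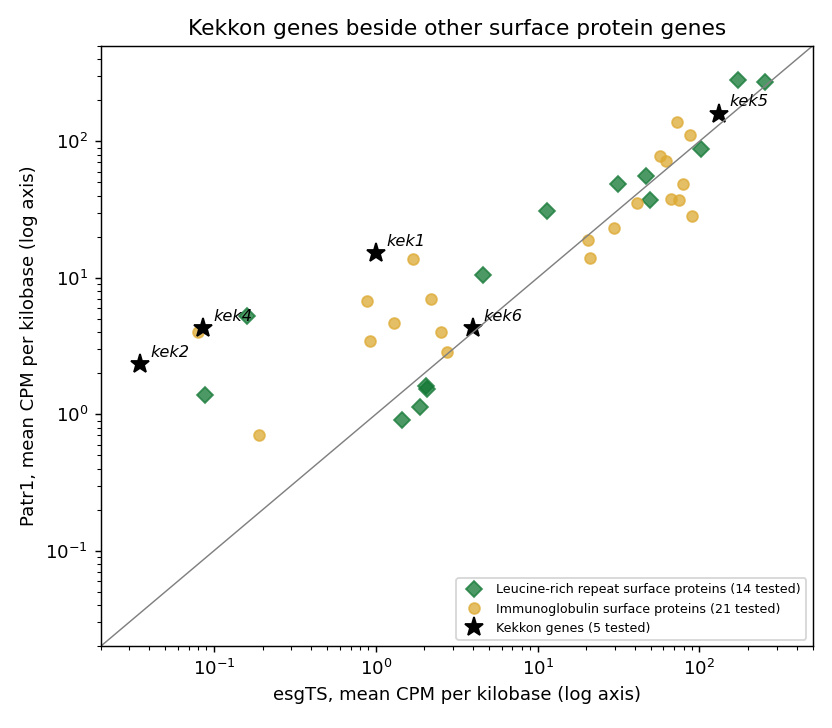
Mean CPM per kilobase in Patr1 against esgTS, both on log axes, for the tested Kekkon genes (stars) and the tested leucine-rich repeat and immunoglobulin surface protein genes, with the line of equal levels. kek2 and kek4 lie at the far left beside side, Lrt and Fili, and kek5 lies at the upper right close to the line.

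The genes nearest in pattern were sought by the distance between log2 CPM profiles over the 6 libraries, each gene centred on its esgTS mean, with a prior count of 2 added. For genes near the floor that constant sets much of the distance, so the search was repeated with a prior count of 0.5, chosen after seeing the data. kek5 kept all 3 of its nearest genes (Rip11, mRpL46 and mop, at distances of 0.08 to 0.09), as did kek6 (mrn, CG9588 and Tgt, 0.14 to 0.22). kek1 kept 1 of 3, CG10947, at a distance of 0.38 with the larger constant and 0.46 with the smaller. CG10947 stood at 2.23 ± 0.14 CPM in esgTS and 38.6 ± 4.68 in Patr1. The other genes first found for kek1, CG43088 and lncRNA:CR43150, were not among the nearest with the smaller constant. kek4 kept 1 of 3, CG31740 (0.53 and 0.56), but not lncRNA:CR44511 and CG13460. kek2 kept 0 of form3, Or56a and Mmp2, so no gene is given as like it. The distance between kek1 and kek2 likewise moved from 0.72 to 2.84, and these data do not fix how alike kek1, kek2 and kek4 were in size of change.

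Marker genes of other cell types moved with the rise of kek1, kek2 and kek4 in some lists. Over all genes tested, 49.4% passed the threshold, 25.5% higher and 23.9% lower in Patr1. The enterocyte list was at 100%. So were the trachea, hemocyte and fat body, and ovary lists, with only 2, 4 and 3 genes tested. The neuron, visceral muscle and enteroendocrine lists were each at 50%, near the share of all genes. Of 10 enterocyte markers, all 10 rose, and their summed level was 1346 to 1400 CPM in Patr1 and 442.1 to 480.1 in esgTS. The 8 neuron markers summed to 146.1 to 169.8 CPM in Patr1 and 192.6 to 214.6 in esgTS, and of the 6 tested 2 fell (elav and nSyb), 1 rose and 3 did not pass. The riser was onecut, at 3.16 ± 0.85 CPM in esgTS and 29.0 ± 7.31 in Patr1, with an edgeR adjusted p of 3.20e-06. But onecut passed the filter only through its Patr1 libraries, so nothing is read from its call. Visceral muscle markers summed to 210.4 to 229.5 CPM in Patr1 and 165.7 to 192.0 in esgTS, and enteroendocrine markers to 218.9 to 406.8 and 337.5 to 389.1. Among the 6 muscle markers tested, bt rose 9.22-fold and sls 3.70-fold, how fell and 3 did not pass (edgeR). Among the 8 enteroendocrine markers tested, dimm, AstA and CCHa1 rose, Orcokinin fell and 4 did not pass (edgeR). The 3 that rose were at 3.40 ± 2.36, 3.10 ± 3.65 and 4.23 ± 2.78 CPM in esgTS. In Patr1 they were at 19.6 ± 3.66, 15.9 ± 4.29 and 16.1 ± 9.61. All 3 passed the filter only through their Patr1 libraries, so nothing is read from their calls. The groups of CCHa1 overlapped. AstA varied in esgTS, at 7.25, 1.66 and 0.38 CPM in replicates 1, 2 and 3, the last below the 3-read floor. The 6 trachea markers summed to 182.8 to 189.4 and 60.5 to 68.7, mostly through bnl and btl, the 2 tested, which both rose (edgeR). Of the others, trh, vvl, serp and verm had at most 21 reads in either genotype and vvl had 0 in Patr1. Hemocyte and fat body markers summed to 328.5 to 405.6 and 297.1 to 336.5, with NimC1 and Lsp2 at 0 reads throughout. Of that list the collagen IV genes Col4a1 and vkg rose, from 7 and 13 reads to 559 and 334 (edgeR adjusted p = 1.92e-08 and 1.58e-07), and srp and crq fell. Both collagen genes passed the filter only through their Patr1 libraries. Ovary markers summed to 243.2 to 310.7 and 227.1 to 248.5, with bam and osk at 0 in esgTS and tj at 0 in Patr1. Of the 3 tested, Fas3 rose 8.14-fold, vas, a germline gene, rose from 4 to 114 reads (edgeR adjusted p = 1.32e-06) and br fell (0.0104). vas, too, passed the filter only through its Patr1 libraries. The part of these cell types in the Kekkon values was not tested.

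In the authors' deposited table, the log2 fold changes were 3.91 for kek1, 6.09 for kek2, 5.61 for kek4, 0.26 for kek5 and 0.09 for kek6, with standard errors of 0.27 for kek1, 1.08 for kek2, 1.103 for kek4, 0.10 for kek5 and 0.24 for kek6, and kek3 was not listed. Those values come from the same libraries and are no independent measurement.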

How the data were processed

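The deposited count table holds, per the file headers, the raw read count of each gene and its length. A second deposited table, on the comparison, gives a normalized signal per library (by its values, each count multiplied by 1 factor per library) and the authors' log2 fold changes with standard errors. Per the submitters' processing notes, the tools were STAR 2.7.3a, cutadapt 2.9, featureCounts from Subread 2.0.0, SAMtools and DESeq2. No source used here gives the build, annotation or strand setting, and coordinates are left out.

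Counts of all 17806 named genes were fitted with edgeR 4.0.16 in R 4.3.3 (TMM factors, default expression filter by group, quasi-likelihood test, Benjamini-Hochberg adjustment over all 7927 tested genes, threshold 0.05). A row without a gene name, at most 0.00296% of reads, was left out. CPM uses TMM-scaled library sizes, and the standard error is the fold change over the root of the F statistic. The test was checked on simulated counts. Within a genotype, pairs of libraries had a chi-square of 2.45 to 4.34 per degree of freedom, above sampling noise. The labels do not say what separates replicates, so p-values measure the spread between these samples only. Alternatives were RLE and upper-quartile factors, other filters, DESeq2 1.42.0, the replicate number as a block, and leaving out each library.

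The members, the gene lists and the rule for named genes were chosen with earlier results of these data known. That rule took the Kekkon genes, Patr-1, fixed pathway genes, the 4 smallest p-values per list, and the 3 nearest patterns. Genes beside the Kekkon genes were taken by position in BDGP6, and other list and marker genes were named beside their counts.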

Additional observations from a re-analysis of the deposited data

How the results depend on the processing

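The direction of kek1, kek2, kek4 and kek5 was the same under every alternative that gave a value; kek4 had none under the filter at 10 CPM in 3 libraries. The fitted kek2 log2 fold change ran from 5.30 to 6.24 and the kek4 log2 fold change from 4.81 to 7.89 when single libraries were left out, the extremes coming from esgTS libraries with 0 to 2 reads, which is why counting ratios are given instead. kek3 had no value under the main filter and none is given. kek6 was at -0.02 without esgTS replicate 2. The number of genes past the threshold was 3914, and 3065 with DESeq2 to 4585 without the filter. The neurotrophin and Toll-like list had 4 to 8 calls without single libraries. Counts of the other lists stayed within 1.5 times. Over the 5 pathway lists, 58 of 85 tested genes passed, where 49.4% of all genes tested did. Of the 58, 41 passed in every alternative, and 0 reversed. The share kept in every alternative is not given for all genes, so the 41 cannot be set against it. Deviations from the group mean correlated at 0.05, 0.20 and -0.04 between same-numbered libraries and at -0.30 to 0.21 between the others. With 3 libraries per group, this cannot settle whether the replicate number marks a shared batch. With the replicate block 3901 genes passed. At the floor of 3 reads per library, levels under about 1 to 1.5 CPM were not measurable.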
